A study of Trametes versicolor and Gelatoporia subvermispora with 30 samples.

Results

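The transcriptome of the white-rot fungus Trametes versicolor grown on cellobiose with syringic acid was compared with that of the same fungus on cellobiose alone. All 6 libraries carrying these labels were taken, 3 in each group, out of 30 in the study and 15 from this species, and every gene row was used: 14570 genes, of which 12295 passed the filter on low counts. Mycelium was grown in submerged culture in a defined mineral medium of the Czapek-Dox type. The control cultures were given cellobiose at 5 g per litre, and the treated cultures the same cellobiose plus 2 mM syringic acid. Where a further comparison was needed, 3 other groups of 3 libraries were used. In these the fungus had received 4-hydroxybenzoic acid (4HBA, 2 mM) beside its cellobiose, lignin from poplar (25 mg in 25 mL) beside its cellobiose, or milled poplar in place of cellobiose (2 g in 25 mL). The labels do not say whether the 3 libraries of a group came from separate cultures, so the p-values measure only the spread between these libraries. Stranded libraries were made from total RNA that had been cleared of ribosomal RNA with reagents for yeast.

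Syringic acid is a phenolic acid with a methoxy group at each carbon beside the phenolic hydroxyl, the pattern of the syringyl units in hardwood lignin. White-rot fungi attack lignin outside the cell with laccases, which oxidise phenols with oxygen, and with secreted heme peroxidases, which use hydrogen peroxide. The small aromatic acids released in this way can be taken up and broken down inside the cell, the process named in the title of the study. The gene table holds 42 symbols, nearly all of them laccases and peroxidases, and all 42 were tested. The remaining genes carry only a locus tag, so no function is given for them, and no list of intracellular aromatic catabolism genes could be formed.

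The groups differed in library composition before any single gene was considered. The 10 most abundant genes held 48.4%, 46.3% and 41.9% of gene counts in the cellobiose libraries, against 3.84%, 4.19% and 3.92% in the syringic acid libraries. Nearly all of that share belonged to 10 gene models that are absent from the reference table, 9 of which were among the 10 most abundant genes on cellobiose. These models held 41.6% to 48.1% of gene counts on cellobiose and 0.905% to 1.20% with syringic acid. Without them the 10 most abundant genes held 5.42% to 5.72% and 3.87% to 4.24%. Reads outside genes moved the same way, at 21.6% to 22.1% against 8.43% to 9.22% of all counts. So did unaligned reads, at 21.2% to 23.1% on cellobiose against 3.62% to 4.25% with syringic acid. Reads that fitted more than 1 gene made up 2.83% to 3.04% against 0.276% to 0.314%. The 10 most abundant genes held 41.9% to 47.5% of gene counts in the 4HBA libraries, 4.10% to 4.40% in the lignin libraries and 6.53% to 7.45% in the poplar libraries. The treatment and this difference in composition cannot be told apart in the comparison with cellobiose or with 4HBA. Sample numbers are also punctuated differently in the syringic acid and lignin labels than in the cellobiose, 4HBA and poplar labels. Among the groups given cellobiose this split coincides with the split in composition, while the poplar libraries, given no cellobiose, had a low share. The labels do not say what the punctuation stands for. Treatment and this split cannot be told apart in the comparison with cellobiose or with 4HBA. Gene counts totalled 23.8 to 24.4 mega-counts per cellobiose library and 26.8, 16.7 and 22.8 mega-counts in the syringic acid libraries. Replicates correlated at 0.995 to 0.996 on cellobiose and at 0.987 to 0.996 with syringic acid (Pearson r over genes, which are not independent replicates). Syringic acid libraries correlated at 0.968 to 0.978 with cellobiose libraries and at 0.977 to 0.992 with lignin libraries, which overlaps their own range. Syringic replicate 2 correlated at 0.989 to 0.990 with the lignin libraries, and at 0.992 and 0.987 with syringic replicates 1 and 3. Replicate 2 of the syringic acid group was the shallowest library and stood apart from the others, so values without it are given where it carries a result.

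**Figure D1:**
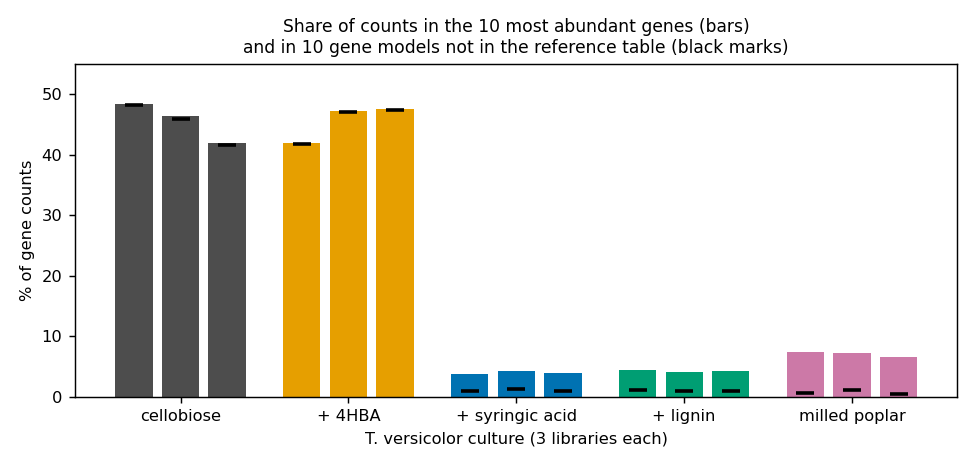
Share of gene counts in the 10 most abundant genes of each library (bars, %) and in 10 gene models missing from the reference table (black marks, %), for 3 libraries in each of 5 cultures. The bars of the cellobiose libraries reach 41.9% to 48.4% and those of the syringic acid libraries stay at or below 4.19%, a level shared with the lignin libraries.

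The 10 models had the largest falls of all genes that met the naming rule. TRAVEDRAFT_137432 stood at 185384, 186632 and 152563 CPM (gene counts normalised for library size by TMM) on cellobiose and at 901, 1300 and 969 CPM with syringic acid. Over the 10 models the log2 difference ran from -7.37 to -5.90, and each passed the test (edgeR quasi-likelihood test, adjusted p = 3.49e-09 for TRAVEDRAFT_137432). These falls are the difference in composition described above, seen gene by gene, so the test adds no separate support to it. Against lignin, where 8.74% of all tested genes passed, the difference ran from -0.19 to 0.11 and 0 of 10 passed with edgeR (0 at an unadjusted p below 0.05; 0 with DESeq2 or loess normalization). Against milled poplar, where 72.5% of all tested genes passed, 0 of 10 passed with edgeR (0 unadjusted) and 0 with DESeq2, whereas loess normalization called 6 of them higher. The models were high in the cellobiose and 4HBA libraries and low in the syringic acid, lignin and poplar libraries. What lies behind that split was not tested. Whether the models have similar sequences is not known here. If they do, they can share reads, and single members are then less certain than their sum.

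In all, 6090 genes differed between syringic acid and cellobiose (adjusted p below 0.05 over 12295 genes, 49.5% of those tested), of which 3330 were higher (27.1%) and 2760 lower (22.4%). A difference of at least 2-fold was reached by 633 of the higher genes (5.15%) and 407 of the lower ones (3.31%). Against lignin, 1075 genes differed (8.74%), 589 higher (4.79%) and 486 lower (3.95%), and 181 of them by at least 2-fold (1.47%). That smaller count varied with the libraries used. It was 2258 without syringic replicate 2 and 344 when both groups were fitted alone. Without syringic replicate 1 or 3 or lignin replicate 1 or 2 it was between 525 and 696. Against 4HBA at the same dose, 5929 genes differed (48.2%). The split against cellobiose gives no overall direction, since upper-quartile scaling turned it to 4597 higher and 1952 lower, and the size factors of DESeq2 to 2951 and 3108.

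With TMM scaling the direction of the difference followed how abundant a gene was. Among 1065 genes with a mean below 1 CPM over the 15 libraries, the median log2 difference between syringic acid and cellobiose was 0.41. It was 0.35 for genes at 1 to 3 CPM, 0.24 at 3 to 10, 0.07 at 10 to 30, -0.08 at 30 to 100 and -0.16 at 100 to 300 CPM. In the 460 genes at 300 CPM or more it was -0.21, and 44.8% of them were called lower against 3.47% of the genes below 1 CPM. Against lignin no such slope was seen, with medians between -0.02 and 0.09 in the same classes. Against 4HBA the slope was present again, from 0.48 to -0.31. With cyclic-loess normalization, which levels differences by abundance, the medians against cellobiose lay between -0.02 and 0.03. Small differences from cellobiose therefore need reading beside the median of genes of the same level. That median is repeated below for the laccases as a family, TvLac3 and the lignin peroxidases only, and the other small differences are given without it. Differences from lignin are given for many of the genes.

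**Figure D2:**
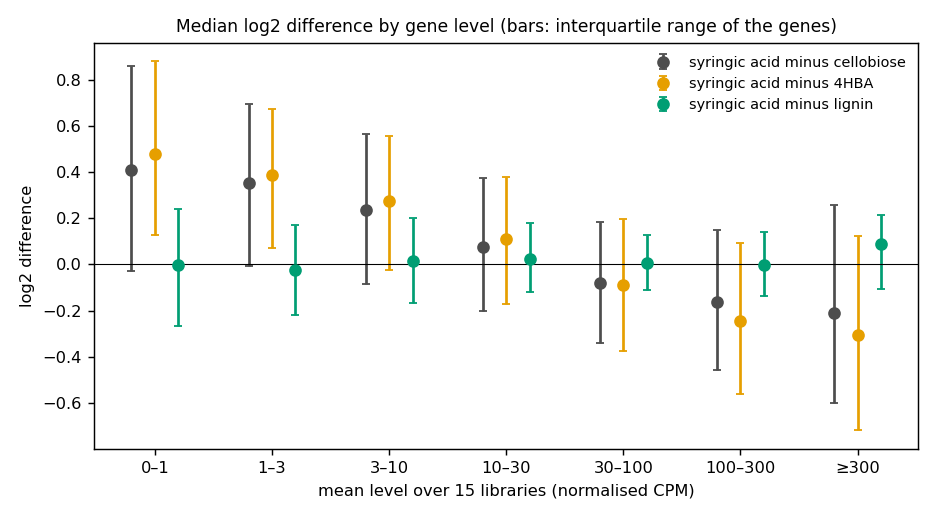
Median log2 difference (y axis) by mean level of the gene over 15 libraries (x axis, normalised CPM), with bars over the interquartile range of the genes in each class. Against cellobiose the median passes from 0.41 in the lowest class to -0.21 in the highest and against 4HBA from 0.48 to -0.31, while against lignin it lies between -0.02 and 0.09.

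Some rises were far larger than this slope and were called against every other culture. Syringic acid was called higher than each of the 4 other groups in 96 genes (0.781% of those tested) and lower than each in 35 (0.285%). The 4 comparisons use the same syringic acid libraries, so they are not independent of each other. Only the lignin libraries were like the syringic acid libraries in both composition and label punctuation. Leaving out 1 library gave 60 to 121 higher and 19 to 53 lower. The higher genes numbered 61 without syringic replicate 1 and 60 without lignin replicate 2. The lower genes numbered 19 without lignin replicate 1, 22 without lignin replicate 3 and 53 without syringic replicate 2. With loess normalization 59 were higher.

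Among genes that met the naming rule, the largest rise belonged to TRAVEDRAFT_69431. Its levels were 7.91, 8.45 and 7.87 CPM on cellobiose and 135, 208 and 208 CPM with syringic acid. The groups did not overlap, which the naming rule required, and the means differed 22.8-fold (log2 difference 4.51, SE 0.18, adjusted p = 6.1e-10). With lignin the gene stayed at 11.5 to 15.9 CPM, with 4HBA at 10.4 to 12.1 CPM and on milled poplar at 27.8 to 31.7 CPM. The log2 difference was 3.82 from lignin, 4.00 from 4HBA and 2.63 from poplar. Without syringic replicate 2 it was 4.41 from cellobiose.

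TRAVEDRAFT_20432 behaved alike but was lowest on wood. It stood at 14.9, 12.8 and 14.4 CPM on cellobiose and at 138, 152 and 272 CPM with syringic acid, 13.3-fold higher by means (log2 difference 3.74, SE 0.20, adjusted p = 4.36e-09). With lignin it was at 18.9 ± 0.990 CPM (SD, n = 3) and in the 4HBA libraries at 12.9 to 14.0 CPM. No library of another group reached the lowest syringic acid library.

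TRAVEDRAFT_66609 rose from 6.50, 4.58 and 5.14 to 46.0, 48.7 and 84.1 CPM (log2 difference 3.47, adjusted p = 2.86e-08). Unlike the previous gene it was also raised on milled poplar, at 24.7 to 27.1 CPM, though still below syringic acid (log2 difference 1.19). TRAVEDRAFT_115397 was a gene of low level, at 1.80 to 2.29 CPM on cellobiose and 11.9 to 17.9 CPM with syringic acid (log2 difference 2.90). In the libraries of the 3 other cultures it was at 1.70 to 3.09 CPM.

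TRAVEDRAFT_27946 and TRAVEDRAFT_19049 lie next to each other in the reference table and rose together. TRAVEDRAFT_27946 went from 19.0, 14.0 and 8.74 to 104, 183 and 83.5 CPM (log2 difference 3.16, SE 0.30, adjusted p = 1.09e-06). TRAVEDRAFT_19049 went from 3.09, 3.40 and 2.84 to 25.3, 38.6 and 19.2 CPM (log2 difference 3.15, SE 0.27, adjusted p = 4.79e-07). Both were highest in syringic replicate 2, and without it the differences were 2.76 and 2.84. The ratio of their counts was 4.11, 4.75 and 4.34 in the syringic acid libraries, 3.08 to 6.15 on cellobiose and 6.19 to 11.7 on poplar. Both were also higher than with lignin, by 2.33 and 2.31 on the log2 scale, and the next genes on either side, TRAVEDRAFT_88818 (-0.27) and TRAVEDRAFT_45578 (0.42), did not pass the test.

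Of the 10 largest rises by locus tag, 3 were higher still with 4HBA, which lacks the methoxy groups, at the same 2 mM. The 4HBA libraries lay on the cellobiose side of the splits in composition and labels. Treatment and those splits cannot be told apart in these differences. TRAVEDRAFT_45010 stood at 2.83, 2.17 and 1.97 CPM on cellobiose, 23.5, 23.1 and 16.9 CPM with syringic acid and 232, 84.8 and 120 CPM with 4HBA. The log2 difference was 3.19 from cellobiose (adjusted p = 3.95e-06) and -2.78 from 4HBA (SE 0.27, adjusted p = 1.36e-06). With lignin and on poplar it was at 0.71 to 2.48 CPM.

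TRAVEDRAFT_171817 was at 51.3, 120 and 115 CPM with syringic acid and 211, 258 and 316 CPM with 4HBA, against 8.20 to 11.1 CPM on cellobiose. Its log2 difference between syringic acid and 4HBA was -1.45 (adjusted p = 0.000119). TRAVEDRAFT_131483 rose from 2.64 to 4.26 CPM on cellobiose to 23.2 to 43.4 CPM with syringic acid, and was 48.6 to 64.9 CPM with 4HBA (log2 difference from 4HBA -0.82, adjusted p = 0.00608). The log2 differences of this pair from lignin were 2.36 and 2.69.

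Neighbours TRAVEDRAFT_43547 and TRAVEDRAFT_82705 were likewise high with both acids. TRAVEDRAFT_43547 stood at 0.82 to 1.16 CPM on cellobiose, at 16.4, 5.69 and 14.4 CPM with syringic acid and at 12.5, 8.46 and 7.28 CPM with 4HBA. The acids overlapped, and the log2 difference between them was 0.38 (95% interval -0.24 to 1.00, adjusted p = 0.29); it was 0.71 and called without syringic replicate 2, and -0.04 with loess normalization. TRAVEDRAFT_82705 was at 29.5, 14.0 and 26.2 CPM with syringic acid and 11.3 to 16.0 CPM with 4HBA, against 1.87 to 2.62 CPM on cellobiose. Its difference from 4HBA, 0.71, was between 0.49 and 0.79 and not called without any 1 of the 4HBA libraries or without syringic replicate 1 or 3. It was likewise not called when both groups were fitted alone (0.65) and with loess normalization (0.44).

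**Figure D3:**
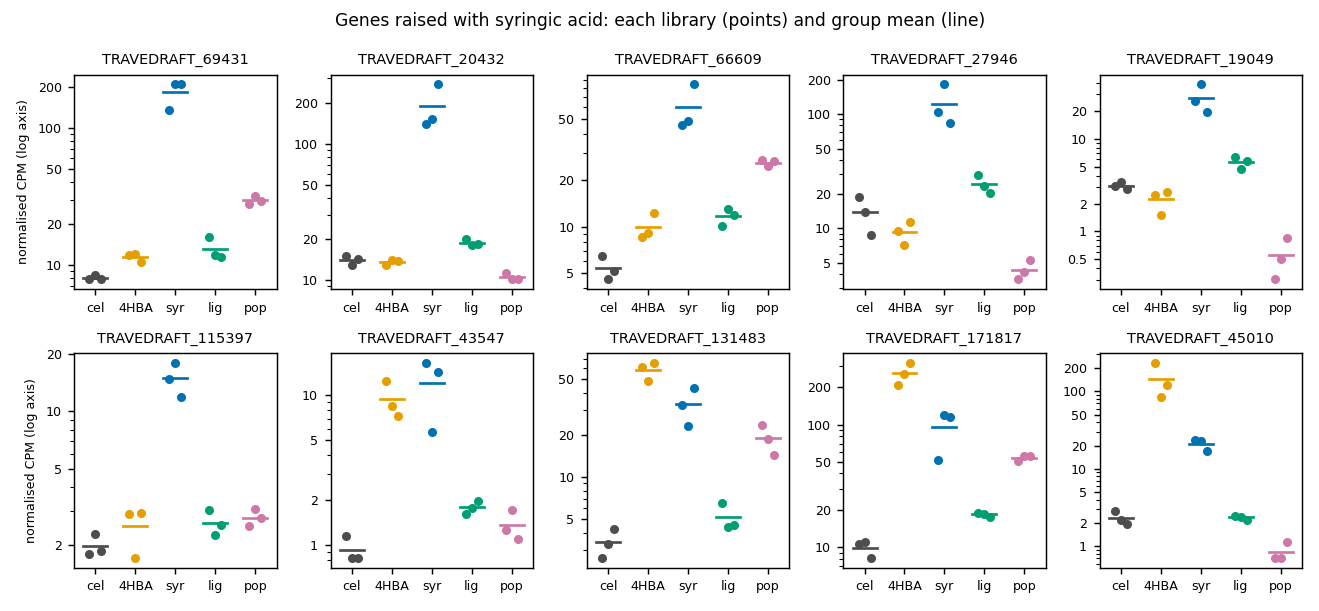
Normalised CPM (log axis) in each of 3 libraries (points) with the group mean (line) for 10 genes raised with syringic acid, on cellobiose (cel), with 4HBA, with syringic acid (syr), with lignin (lig) and on milled poplar (pop). In the first 6 panels every syringic acid library lies above all others, and in the panels of TRAVEDRAFT_131483, TRAVEDRAFT_171817 and TRAVEDRAFT_45010 the 4HBA libraries lie highest.

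A pair of the 10 largest rises leaned on syringic replicate 2. TRAVEDRAFT_135924 was at 6.01, 23.9 and 6.78 CPM with syringic acid and 0.55 to 1.16 CPM on cellobiose (log2 difference 3.78, or 2.88 without that library). Its difference from lignin, 1.30, dropped to 0.39 without that library and was then not called (adjusted p = 0.122). TRAVEDRAFT_124955 was at 23.5, 74.9 and 36.6 CPM against 4.43 to 5.15 CPM on cellobiose (log2 difference 3.22, or 2.65 without it), and it was still called higher than with lignin without it (1.39, adjusted p = 0.000443).

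Genes that were lowest with syringic acid showed smaller differences. TRAVEDRAFT_25232 stood at 61.7, 59.4 and 49.5 CPM on cellobiose and at 11.4, 13.3 and 11.5 CPM with syringic acid (log2 difference -2.24, SE 0.14, adjusted p = 1.68e-08). It was at 18.6 to 22.7 CPM with lignin, so the difference from lignin was -0.78. TRAVEDRAFT_40647 was at 255 to 292 CPM on cellobiose and 126, 104 and 157 CPM with syringic acid (log2 difference -1.09), and every library of the other 4 groups was at 216 CPM or more. TRAVEDRAFT_66503 fell from 29.7 to 33.4 CPM on cellobiose to 17.1 to 21.3 CPM with syringic acid and was highest on milled poplar at 131 to 149 CPM. TRAVEDRAFT_168510 and TRAVEDRAFT_163366 fell by 1.40 and 1.17 on the log2 scale from cellobiose. Their differences from lignin (-0.75 and -0.83) stayed negative when a library was left out, but the call was often lost. For TRAVEDRAFT_168510 the call was lost without syringic replicate 1 or 3 or lignin replicate 1 or 2 (-0.73 to -0.61). For TRAVEDRAFT_163366 it was lost without syringic replicate 1 or lignin replicate 2 or 3 (-0.83 to -0.63). Both calls were also lost when the 6 libraries were fitted alone. The difference of TRAVEDRAFT_163366 from 4HBA (-0.58, with overlapping groups) was not called without 4HBA replicate 3 or syringic replicate 1 or 2 (-0.52 to -0.37), under upper-quartile scaling (-0.43) or with loess normalization (-0.50).

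The next 10 largest falls from cellobiose, named after their values were seen, were set beside their differences from lignin. TRAVEDRAFT_109203 stood at 303, 242 and 300 CPM on cellobiose and at 21.4, 24.4 and 17.0 CPM with syringic acid (log2 difference -3.75, SE 0.24, adjusted p = 2.69e-08). With lignin it was at 15.6 to 27.9 CPM, a log2 difference of 0.04 (95% interval -0.45 to 0.52). TRAVEDRAFT_125130 fell from 134 to 169 CPM to 20.2 to 21.0 CPM (log2 difference -2.89) and differed from lignin by -0.09. Against lignin, where 8.74% of all genes passed, 0 of the 10 passed with edgeR (0 at an unadjusted p below 0.05), 0 with DESeq2 (1 unadjusted) and 0 with loess normalization. TRAVEDRAFT_24504, also 1 of the 10, was at 0.40 to 0.61 CPM against 0.75 to 1.44 CPM without overlap (-0.90, 95% interval -1.89 to 0.09).

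The laccases were split. Of 7, 4 rose and 2 fell against cellobiose, with a median log2 difference of 0.45 beside 0.07 over all genes, of which 27.1% were called higher and 22.4% lower. A mean below 10 CPM was found for 3 of the 7, among them 2 of the rises. Genes of that level had class medians of 0.24 to 0.41. With loess normalization 3 laccases rose and 2 fell, with a median of 0.36. TvLac3 stood at 43.5, 47.1 and 60.6 CPM on cellobiose and at 126, 85.5 and 151 CPM with syringic acid (log2 difference 1.26, SE 0.29, adjusted p = 0.00237). It was the laccase with the largest rise, against a median of -0.16 for genes of its level, but it was higher again with lignin at 266 to 493 CPM (log2 difference -1.70, adjusted p = 0.00176) and with 4HBA at 176 to 280 CPM (-0.84, adjusted p = 0.0241). The difference from 4HBA lost the call without syringic replicate 1, without syringic replicate 2, without 4HBA replicate 1 and with loess normalization. TvLac1, at the highest level on cellobiose in counts not corrected for length, was at 274, 303 and 394 CPM and fell to 102, 46.8 and 84.3 CPM (log2 difference -2.06, adjusted p = 5.11e-06; -1.80 without syringic replicate 2). TvLac2 fell from 19.3 to 24.5 CPM to 10.9 to 11.7 CPM (log2 difference -0.92). TvLac1 and TvLac2 were also lower than with lignin, with log2 differences of -0.82 and -0.58. The call of TvLac1 was lost without syringic replicate 3 or lignin replicate 2 or 3 (-0.88 to -0.74), and when the 6 libraries were fitted alone. That of TvLac2 was lost without syringic replicate 1 or 3 or lignin replicate 1 or 3 (-0.60 to -0.54). The other rises were TvLac4 (0.45, to 18.3 to 19.5 CPM), TvLac7 (1.24, to 2.15 to 2.88 CPM) and TvLac5 (0.80, to 2.14 to 3.46 CPM). The rise of TvLac5 was not called without cellobiose replicate 2 or 3 or syringic replicate 2 (0.57 to 0.77), without genes above 1% of counts (0.75) or with loess normalization (0.47). TvLac7 was higher than with lignin by 1.21 (adjusted p = 0.0052), a call not followed through the alternatives, and TvLac6 (0.17) did not pass the test.

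Manganese peroxidases, which oxidise manganese to a diffusible oxidant of phenols, gave 2 rises and 4 falls among 13, with a median of -0.17; the 6 called are near the 49.5% of all genes. With loess normalization there were 1 rise and 6 falls, and in the 6 libraries alone 0 rises and 4 falls. MnP5s stood at 122, 85.6 and 92.5 CPM on cellobiose and at 18.1, 8.87 and 16.9 CPM with syringic acid (log2 difference -2.76, SE 0.30, adjusted p = 4.42e-06). With lignin it was at 12.7 to 28.7 CPM and did not differ by the test (-0.51, 95% interval -1.13 to 0.12), and it was lower than with 4HBA by -1.21. MnP3s fell from 16.8, 14.7 and 14.8 to 10.7, 9.98 and 9.44 CPM (log2 difference -0.62), yet stood above lignin (3.59 to 5.08 CPM, log2 difference 1.17) and 4HBA (0.76). MnP1s was at 46.1 to 77.2 CPM on cellobiose and 71.2, 43.1 and 53.4 CPM with syringic acid, overlapping (-0.17), and was higher than with lignin by 0.81 (adjusted p = 0.0319). That call against lignin was not followed through the alternatives. MnP10s and MnP2s fell by 0.40 and 0.58 on the log2 scale. MnP7s rose by 0.97, to no more than 1.11 CPM. The rise of MnP11s (0.31, adjusted p = 0.047) was lost under 9 of the alternatives, among them leaving out cellobiose replicate 2 or 3 or syringic replicate 1 or 3 (0.24 to 0.32). That of MnP7s was lost without cellobiose replicate 1 (0.63) and in the 6 libraries alone. The fall of MnP10s was lost without cellobiose replicate 1 or 2 or syringic replicate 3 (-0.43 to -0.26) and under upper-quartile scaling. MnP8s was called lower without syringic replicate 2 (-0.56) and with loess normalization (-0.56), as was MnP4s with loess normalization (-0.66).

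Lignin peroxidases, which oxidise non-phenolic aromatic rings, all had a mean below 10 CPM. Of 10, 5 rose and 1 fell, with a median of 0.42, near the 0.24 to 0.41 of all genes below 10 CPM. Of all genes 27.1% were called higher and 22.4% lower, and at 1 to 10 CPM 33.6% to 36.6% were called higher. LiP12 rose the most, from 2.44, 2.05 and 2.57 to 6.32, 5.49 and 4.18 CPM (log2 difference 1.18, adjusted p = 0.000176). LiP9, LiP4, LiP1 and LiP10 rose by 0.93, 0.73, 0.72 and 0.67, and LiP2 fell by 0.61 on the log2 scale. The rise of LiP10 was lost without cellobiose replicate 1 (0.59) or syringic replicate 1 (0.49) and with loess normalization (0.34). Against lignin, where 8.74% of all genes passed, 0 of the 10 passed with edgeR, DESeq2 or loess normalization, with 1 at an unadjusted p below 0.05 in each. With loess normalization the counts against cellobiose became 3 rises and 2 falls and the median 0.11.

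Versatile peroxidases, which combine both activities, had 1 fall among 3. VP2 stood at 479, 363 and 385 CPM on cellobiose and at 124, 75.5 and 126 CPM with syringic acid (log2 difference -1.92, SE 0.19, adjusted p = 1.93e-06). Its level with lignin, 72.1 to 110 CPM, overlapped that with syringic acid (0.16, 95% interval -0.23 to 0.56), while with 4HBA it was at 478 to 627 CPM (log2 difference -2.33, adjusted p = 3.2e-07). VP1 and VP3at, both between 0.87 and 2.66 CPM with syringic acid, did not pass the test.

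Neither dye-decolorizing peroxidase passed the edgeR test against cellobiose (1 of 2 at an unadjusted p below 0.05), nor DESeq2 or loess normalization. DyP1 was at 49.2, 58.1 and 34.3 CPM on cellobiose and 31.5, 51.8 and 21.8 CPM with syringic acid (-0.44); without syringic replicate 2 the difference was -0.82 (edgeR, adjusted p = 0.00911). DyP2 was called higher without cellobiose replicate 2 (0.65) and under upper-quartile scaling (0.52). DyP1 was higher than with 4HBA (12.7 to 16.3 CPM, log2 difference 1.21). Of 3 heme-thiolate peroxidases, a family of peroxide-dependent enzymes, HTP1 fell from 30.2, 27.0 and 26.0 to 12.1, 10.9 and 12.0 CPM (log2 difference -1.25, adjusted p = 2.25e-06) and stood above lignin by 0.72. HTP2 rose by 0.69. HTP3 rose by 1.83 to 6.58, 18.9 and 4.43 CPM, a difference that was 1.01 without syringic replicate 2, and it was at 10.1 to 17.4 CPM with lignin.

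The remaining symbols included TvFet3A, whose name is that of the multicopper ferroxidase of iron uptake in yeast. It fell from 204, 161 and 257 to 119, 95.1 and 136 CPM (log2 difference -0.83, adjusted p = 0.000438) and did not differ by the test from lignin (0.11). CCP1, named for cytochrome c peroxidase, a mitochondrial enzyme in yeast, was at 439, 462 and 363 CPM and then 489, 374 and 450 CPM (0.05, 95% interval -0.16 to 0.27), and was called higher with loess normalization (0.26). LDO1 fell from 146 to 169 CPM to 54.5 to 67.9 CPM (log2 difference -1.37, adjusted p = 8.58e-07), and LDO2 (0.09) did not pass.

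**Figure D4:**
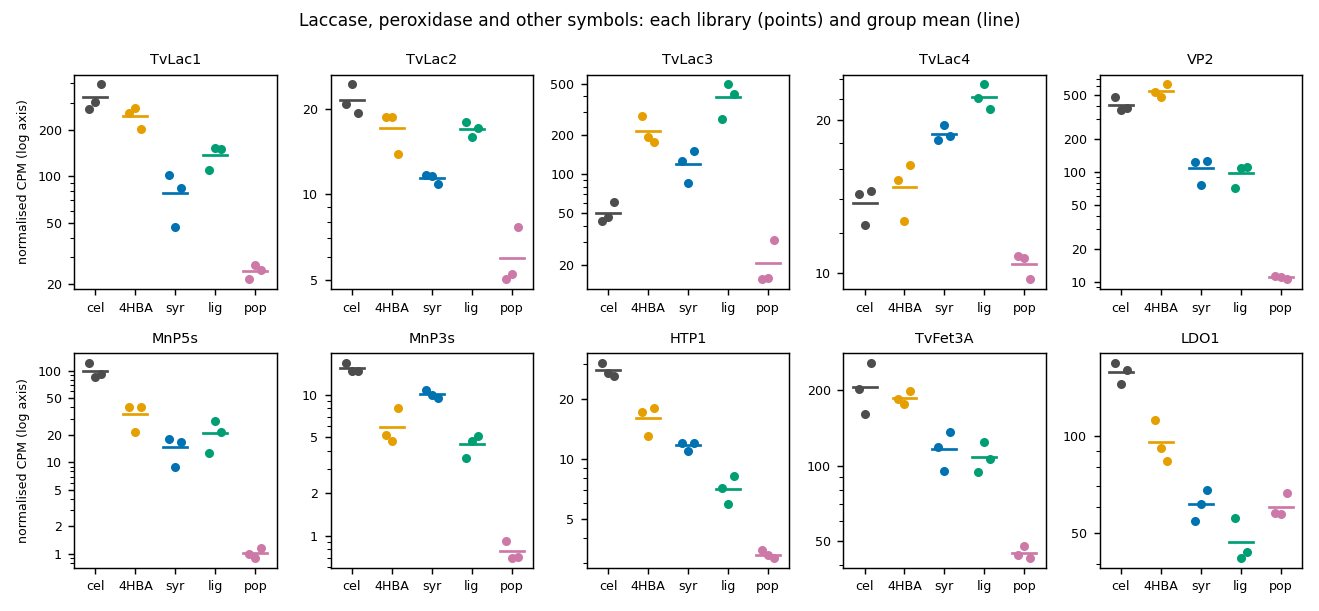
Normalised CPM (log axis) in each of 3 libraries (points) with the group mean (line) for 10 symbols, in the cultures abbreviated as before. TvLac3 lies above cellobiose in every syringic acid library and higher again with lignin, and VP2 separates cellobiose and 4HBA (363 to 627 CPM) from syringic acid and lignin (72.1 to 126 CPM).

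**Figure D5:**
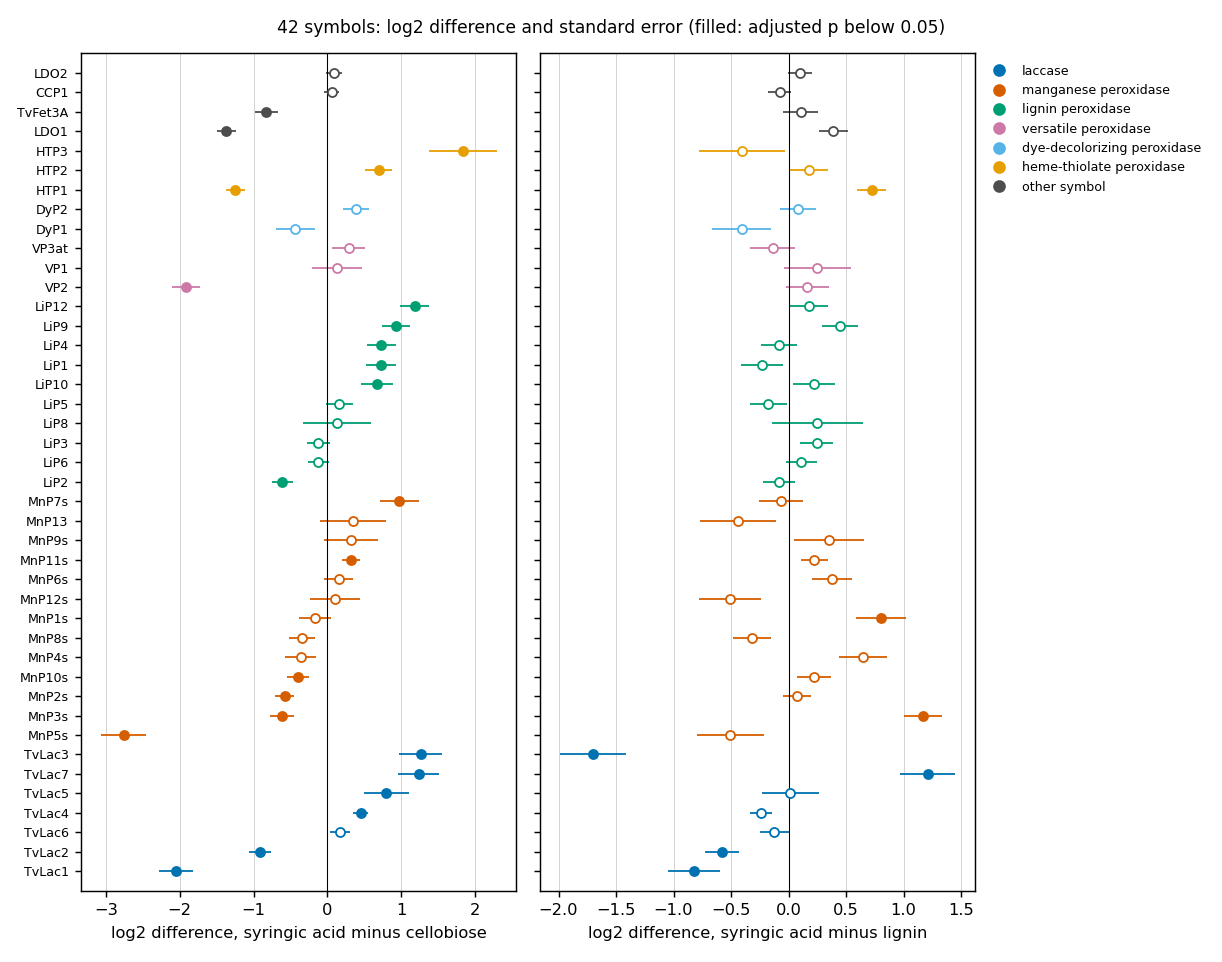
Log2 difference with its standard error for all 42 symbols, syringic acid minus cellobiose (left) and minus lignin (right); filled points have an adjusted p below 0.05, and colours give the enzyme class. The class II peroxidases (manganese, lignin and versatile) show 7 rises and 6 falls among 26 against cellobiose, beside 49.5% of all genes called, and 2 higher and 0 lower against lignin, beside 8.74%.

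Transfer RNA genes, short transcripts that total-RNA libraries capture unevenly, had 15 tested of 268. Among these, 6 rose and 0 fell against cellobiose, with a median log2 difference of 1.17, and 9 were not called. Of all genes 27.1% were called higher and 22.4% lower, and in the classes below 10 CPM 20.8% to 36.6% were called higher. The filter keeps a gene with enough counts in some libraries, so the 15 may have been kept through the groups where they are high. Their shared direction is therefore not read as a result about transfer RNAs. DESeq2 called 3 rises and loess normalization 1. Against lignin, where 8.74% of all genes were called, 0 of 15 were called with edgeR (1 at an unadjusted p below 0.05), 0 with DESeq2 and 0 with loess normalization, with a median of 0.01 in edgeR. All 15 had a mean below 10 CPM, and the part of library composition in the rise was not tested.

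Some genes with large differences lay side by side, where 8.46% of all tested genes were called and at least 2-fold different. Runs of at least 3 neighbours in the reference table, all called and at least 2-fold different in the same direction, numbered 13, with 7 rises and 6 falls, and held 41 genes. This count was made after the values were seen, and the number that gene order alone would give was not worked out. TRAVEDRAFT_49725 and TRAVEDRAFT_54012, each in a rising run of 3, lost the call without cellobiose replicate 2 or 3 and with loess normalization. TRAVEDRAFT_49725 also lost it without cellobiose replicate 1 or syringic replicate 3. TRAVEDRAFT_54012 also lost it with RLE normalization, without genes above 1% of counts, in the 6 libraries alone and without syringic replicate 2. TRAVEDRAFT_75462, in the run of TRAVEDRAFT_54012, lost it with loess normalization. The number of runs is therefore not stable. The longest run, of 5 genes, fell. Its most abundant member, TRAVEDRAFT_169894, stood at 994, 960 and 881 CPM on cellobiose and at 237, 300 and 211 CPM with syringic acid (log2 difference -1.92, adjusted p = 2.69e-08). The other 4, TRAVEDRAFT_126499, TRAVEDRAFT_126095, TRAVEDRAFT_29790 and TRAVEDRAFT_38225, fell by 1.85, 1.87, 1.30 and 1.50 on the log2 scale. TRAVEDRAFT_169894 was at 208 to 256 CPM with lignin (0.10, not called) and at 6.52 to 7.53 CPM on milled poplar.

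One of the runs that rose was led by TRAVEDRAFT_54424, at 35.7, 37.0 and 33.4 CPM on cellobiose and 91.6, 55.7 and 95.2 CPM with syringic acid (log2 difference 1.19, adjusted p = 2.23e-05). Its neighbours TRAVEDRAFT_24996 and TRAVEDRAFT_54422 rose by 1.39 and 1.31. TRAVEDRAFT_54424 was also higher than with lignin (1.21), 4HBA (0.99) and poplar (1.24), where its libraries lay between 31.6 and 46.5 CPM. In the run of TRAVEDRAFT_49308, that gene rose from 12.3, 18.8 and 14.7 to 52.1, 67.7 and 37.4 CPM (log2 difference 1.77) and was above lignin by 1.01, whereas its neighbour TRAVEDRAFT_170422 rose by 1.65 and was not called against lignin (-0.17). The calls of TRAVEDRAFT_54424 and TRAVEDRAFT_49308 against groups other than cellobiose were not followed through the alternatives.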

How the data were processed

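RNA was sequenced as stranded total-RNA libraries, per the labels. The deposited values are raw counts of reads per gene; FastQC, Bowtie2, Bowtie and HTSeq are named in the submitters' processing notes, with versions, settings and genome build not given in the sources used here. Entries naming no gene made up 45.8% to 48.4% of counts in the cellobiose libraries and 12.7% to 14.2% in the syringic acid libraries and were left out. Locus tags and symbols were matched to a RefSeq table (14560 of 14570 genes), used for names and gene order only.

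Counts from all 15 T. versicolor libraries were fitted together with 1 mean per group in edgeR 4.0.16 (R 4.3.3: TMM, default expression filter, quasi-likelihood F-test, two-sided, Benjamini-Hochberg over 12295 genes); the biological coefficient of variation was 0.110. The procedure was tested on simulated counts whose groups shared a composition apart from the genes changed on purpose. That test does not cover the difference in composition or the slope by abundance seen here. A count of 0 allows up to 3 counts, 0.0768 to 0.193 CPM, covering counting error only. Chi-square per gene between replicates was 17.9 to 61.5, above counting error; no pair was a copy. Alternatives were DESeq2 1.42.0, other scalings, no filter, the compared libraries alone, leaving out each library, and cyclic loess with limma 3.58.1, the last chosen after seeing the data.

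Genes named against cellobiose had to pass the test, average at least 10 CPM in the higher group and show no overlap between groups: the 10 largest rises and falls among symbols and among locus tags, and 5 a direction differing from each other group. All symbols and the 10 most abundant genes were added, as were, after their values were seen, the next 10 falls and the neighbour runs. Members, lists and rules were chosen with earlier results of these data known; 25 of 35 planned lists found no member for lack of product names.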

Additional observations from a re-analysis of the deposited data

Results flagged for a closer look

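One entry outside the gene counts stood above its control level. Reads left out for low alignment quality made up 0.360% ± 0.0653 of all counts in the syringic acid libraries (SD, n = 3; 0.300% to 0.430%), against 0.121% ± 0.00475 on cellobiose (highest 0.124%), and 0.290% to 0.562% in the lignin libraries. It was 0.253% to 0.275% in the poplar libraries and at most 0.127% in the 4HBA libraries, and its part in the gene results was not tested.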

How the results depend on the processing

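The 6090 genes called against cellobiose became 5081 to 6549 under other settings and 5121 to 6100 when a library was left out. RLE normalization gave 2959 higher and 3059 lower, leaving out genes above 1% of counts 2886 and 3111, the 6 libraries alone 2452 and 2629, and loess normalization 2731 and 2807. Upper-quartile scaling moved the median of all genes from 0.07 to 0.20. The 1075 genes called against lignin became 344 in the 6 libraries alone and 525 to 2258 with a library left out. Against 4HBA the range over left-out libraries was 4839 to 6040; the split of 3227 higher and 2702 lower became 4915 and 1868 under upper-quartile scaling and 2752 and 3089 with DESeq2. Of the genes apart from each other group, those higher became 59 with loess normalization and 60 to 121 with a library left out; those lower became 18 under upper-quartile scaling, 57 with DESeq2 and 19 to 53 with a library left out. The cause was not tested. Of 1654 values for 128 genes against cellobiose, 1574 kept direction and call, 40 lost the call, 16 gained it and 24 reversed. Against lignin and 4HBA the alternatives were followed gene by gene for 30 named genes only. No reversed value passed the test. With loess normalization these were MnP13 (-0.13), MnP6s (-0.19), MnP9s (-0.094), LiP5 (-0.12), LiP8 (-0.21), MnP12s (-0.22), VP1 (-0.22), TvLac6 (-0.052), TRAVEDRAFT_139903 (0.054), TRAVEDRAFT_159607 (0.048), TRAVEDRAFT_56779 (0.0035) and, against 4HBA, TRAVEDRAFT_43547 (-0.038). Under upper-quartile scaling they were LiP3 (0.0065) and LiP6 (0.0044). With a library left out the ranges that crossed 0 were -0.38 to 0.0077 for MnP1s, -0.22 to 0.017 for LiP6, -0.11 to 0.35 for LiP8, -0.12 to 0.46 for MnP12s, -0.17 to 0.31 for VP1, -0.040 to 0.16 for CCP1, -0.085 to 0.18 for LDO2 and -0.49 to 0.033 for TRAVEDRAFT_56779 against cellobiose, and -0.011 to 0.37 for VP2 and -0.020 to 0.24 for TvFet3A against lignin. No paired analysis was possible because the groups share no replicate numbers in the labels. Where a left-out library leaves 2 in a group, the shared spread of the other groups enters the fit. Genes near the floor of 3 counts are limited by depth.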
